A study of Mus musculus with 6 samples.

Results

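The genes described here code for matrix metalloproteinases (Mmp), for ADAMTS proteases, which carry a disintegrin-like domain and thrombospondin repeats, and for the ADAMTS-like proteins (Adamtsl), which resemble ADAMTS proteins but lack the protease domain. They were chosen by symbol alone, as protein-coding RefSeq genes of chromosomes 1 to 19 and X named Mmp, Adamts or Adamtsl with a number, except for 2 genes that were not used here. The choice gave 45 of 21631 genes, of which 22 are Mmp genes, 18 Adamts genes and 5 Adamtsl genes. A locus is the gene plus 10 kb on each side. Open chromatin was mapped by Omni-ATAC, a form of ATAC-seq in which a transposase cuts accessible DNA, in macrophages of wild-type BALB/c mice. The mice were either young (3 weeks) or old (more than 78 weeks), and each age had 3 libraries, each made from 50000 cells. Marrow cells came from crushed femora, tibiae and humeri, and the adherent cells were expanded in alpha-MEM medium with serum and typed as F4/80+ CD169+. The series as a whole concerns how marrow age affects a B-cell leukaemia, and the comparison asks where old and young macrophages differ in accessibility. The cells were therefore cultured and not taken fresh. No label ties a replicate to its own mouse or culture, and the spread that the p-values use may be technical.

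Matrix metalloproteinases are zinc enzymes that cut collagens, elastin, proteoglycans and many signalling proteins outside the cell. Most are secreted as inactive precursors, some are anchored in the plasma membrane, and TIMP proteins inhibit them. ADAMTS proteases have narrower tasks, such as cutting the proteoglycans aggrecan and versican, trimming procollagen or cutting von Willebrand factor, and several ADAMTS-like proteins bind fibrillin microfibrils. Macrophages are a known source of metalloelastase (MMP12) and MMP14.

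Each library has its own deposited list of broad peaks, 215947 to 254410 peaks covering 48.2 to 66.1 Mb, and all values below count base pairs of a locus that lie under peaks. The read depth is unknown, so the lack of a peak says only that none was called. Covered length per locus was scaled to the same total over all loci in each library, and a second set of lists of equal length held the 50000 strongest peaks of each library by −log10 q. In these bulk samples, fewer cells of a type and less open chromatin per cell cannot be told apart. All 10 macrophage marker loci, among them the genes of F4/80 and CD169, held peaks in both sets of lists, a weak check, since many loci do. On the deposited lists the summed coverage of the macrophage markers was 38345 to 39053 bp in young and 36869 to 38796 bp in old libraries, and that of 11 stromal and fibroblast markers was 37919 to 41779 and 37358 to 40795 bp, with overlapping ages for both. The sum of 5 endothelial markers did not overlap, at 13753, 13676 and 13647 bp in young and 12340, 13106 and 12319 bp in old libraries. Of these 5, 4 had a lower estimate, none was called and none was at 0, and their part in the results on the deposited lists was not tested. The sums of neutrophil, B cell and osteoclast markers overlapped.

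Coverage differed widely among the 45 loci at either age, as the plot of covered length by library shows. Per length, the most open loci were those of Adamtsl4, with peaks over 17.3% of the locus on average, and Mmp14, the membrane-bound collagenase, with 15.6%. Adamts4, Mmp11, Mmp28, Adamtsl5 and Mmp2 followed with 10.4 to 11.9%. These shares are not of the genes alone, since flank makes up much of a short gene's locus. The Adamts4 locus shared bases with 5 other loci, and those of Mmp11, Mmp28 and Adamtsl5 with 4 each. The best-ranked region lay in the flank at Mmp14, Adamts4, Mmp11, Mmp28, Adamtsl5 and Mmp2, and in the gene at Adamtsl4. At the other end stood Mmp1a with 0.079%, Mmp7 with 0.11%, Adamts19 with 0.24% and Mmp1b, Mmp10, Mmp3, Mmp16 and Adamts20 with 0.48 to 0.88%. In absolute length, which grows with the gene, Adamts2 and Adamtsl3 were widest. Adamts2, a procollagen N-proteinase gene of 205.5 kb, had 12265, 12530 and 14110 scaled bp in the young libraries, in replicate order here and below, and 13875, 14381 and 14509 bp in the old ones. Adamtsl3 (279.1 kb) had 12660, 11367 and 12483 bp in young and 11130, 10570 and 10286 bp in old libraries. The narrowest, Mmp1a, had 0, 0 and 85.6 bp in young and 70.0, 0 and 0 bp in old libraries, and Mmp7 had a peak in old replicate 2 alone (183.5 bp).

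**Figure D1:**
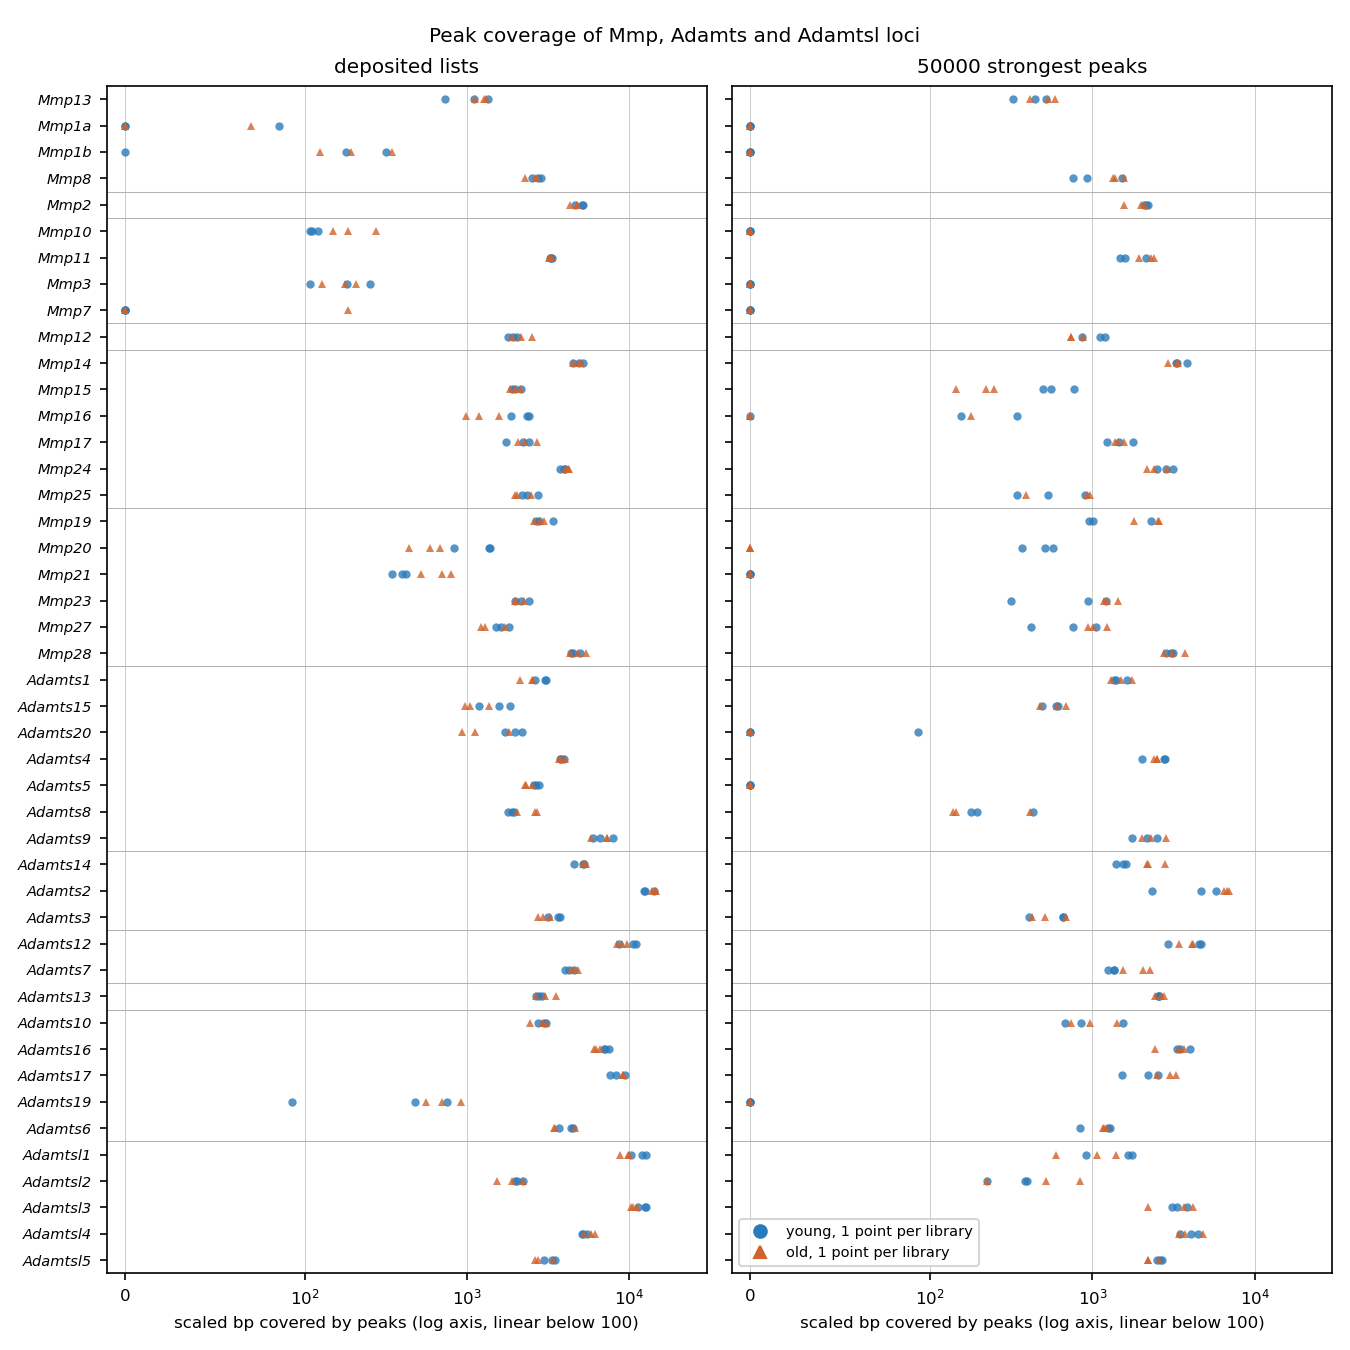
Base pairs covered by peaks at each of the 45 loci, on a log axis, for the deposited lists and for the 50000 strongest peaks per library; circles are young and triangles old libraries, and lines divide groups of genes by role. Mmp1a and Mmp7 lie at or near 0 at both ages, while Mmp16 and Mmp20 have their 3 old points to the left of their 3 young points on the deposited lists.

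Of the 45 loci, 40 had a mean unscaled coverage of 500 bp or more on the deposited lists and were tested among 16952 loci with limma. With age, 14 of the 40 had a higher and 26 a lower estimate, with a median log2 change of -0.06 against 0.01 over all loci tested. At an adjusted p under 0.05, 1 member was narrower in old libraries, Mmp16, against 0.578% of all loci, and none was wider, against 0.383% of all loci. At an unadjusted p under 0.05 there were 3 of 40 members with a higher and 9 with a lower value in old libraries, against 5.82% and 6.95% of all loci. The 3 old values lay below all 3 young values at 7 of the 40 loci, where 8.37% of all loci did so, and above them at 2, where 8.61% of all loci did so. On the equal-length lists, 30 members passed the filter among 14395 loci, 17 with a higher and 13 with a lower estimate (median log2 change 0.04, against -0.00 over all loci). None of the 30 was called by limma there, against 0.841% of all loci called wider and 0.438% narrower, while 5 members had a higher and 1 a lower value at an unadjusted p under 0.05, against 7.32% and 7.52% of all loci. At 3 members each old value exceeded each young one (Adamts14, Adamts2 and Adamts7) against 9.84% of all loci, and at none of the 30 did every old value lie below every young one, against 10.5% of all loci.

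**Figure D2:**
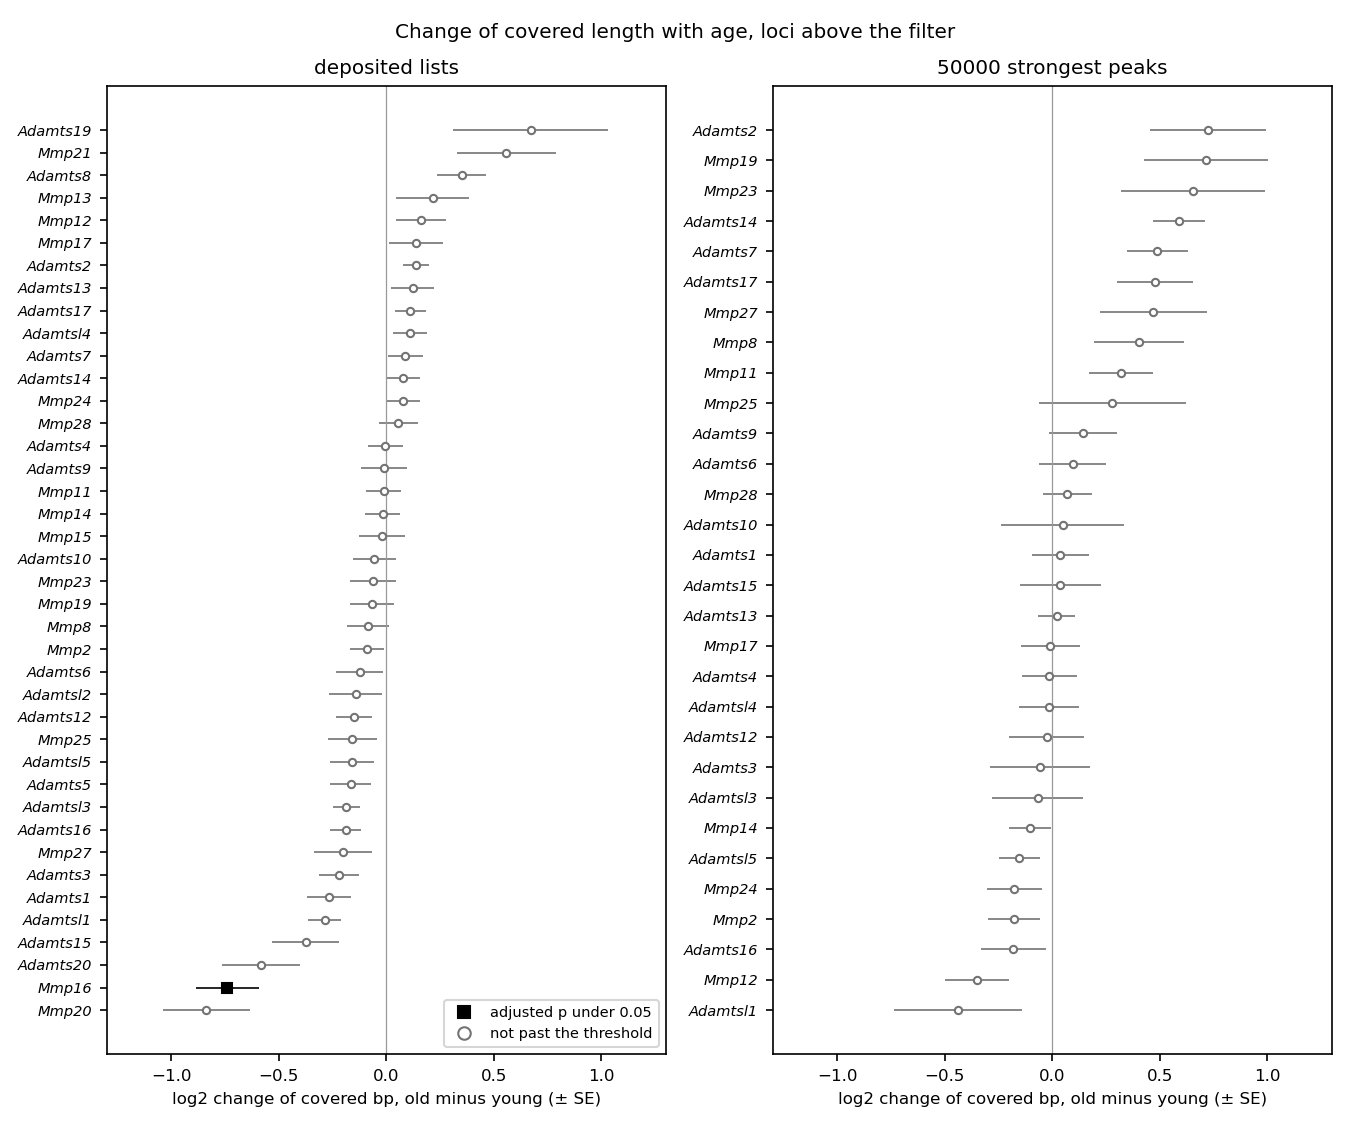
Log2 change of covered length, old minus young, with its standard error (n = 3 per age) for the 40 members tested on the deposited lists and the 30 tested among the 50000 strongest peaks. The filled square is Mmp16, the one member past an adjusted p of 0.05, and open circles did not pass.

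The largest block of Mmp genes is a cluster of 10 on chromosome 9 (mm10 chr9:7272514-7699585, 427 kb), which holds the 4 collagenase genes, the stromelysin and matrilysin genes other than Mmp11, and the genes of metalloelastase (Mmp12) and enamelysin (Mmp20). In the order Mmp13, Mmp12, Mmp1b, Mmp3, Mmp1a, Mmp10, Mmp8, Mmp27, Mmp20 and Mmp7, no other gene of the table lies between them. Peaks in and around the cluster numbered 45, 45 and 47 in the young libraries and 48, 51 and 41 in the old ones, and covered 12879, 10828 and 13104 bp unscaled in young and 11266, 9873 and 9621 bp in old libraries. Of these peaks, 10 or 11 in each young and 8 or 9 in each old library were among the library's 50000 strongest. At both ages the middle of the cluster, from Mmp1b to Mmp10, and Mmp7 at its far end held few or no peaks. Peaks lay mainly near Mmp13, Mmp12, Mmp8, Mmp27 and Mmp20, some of them between genes.

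Mmp13, the main collagenase gene of rodents, had 1338, 732 and 1094 scaled bp in young and 1113, 1274 and 1298 bp in old libraries (log2 change 0.21, SE 0.17, adjusted p = 0.66 by limma). The ages overlapped. A peak over its start was called in all 6 libraries, with a deposited fold enrichment of 7.28, 7.31 and 7.53 in young and 7.78, 6.67 and 6.49 in old libraries. Mmp8, the neutrophil collagenase, had 2721, 2856 and 2513 bp in young and 2626, 2711 and 2269 bp in old libraries (log2 change -0.08, SE 0.10, adjusted p = 0.79). Mmp8 and Mmp27 share bases of their loci, including the best-ranked region of both, chr9:7567233-7567730 inside Mmp8, which ranked between 8181 and 17675 in its lists. Mmp12, the metalloelastase of macrophages, had 1790, 2022 and 1926 bp in young and 1877, 2507 and 2142 bp in old libraries (log2 change 0.16, SE 0.12, adjusted p = 0.62), again with overlap. Among the 50000 strongest peaks the direction of Mmp12 was the opposite, with 1201, 862 and 1113 bp in young and 737, 876 and 734 bp in old libraries (log2 change -0.35, SE 0.15, unadjusted p = 0.0435, adjusted p = 0.31). At Mmp12, 1 gene-body region (chr9:7345395-7346219) ranked 45978, 53344 and 41114 in the young lists and 69919, 61793 and 91984 in the old lists, so that it counted among the strongest peaks in 2 young libraries and in no old one.

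The 5 other loci of the cluster's middle and far end fell below the filter on the deposited lists and held no base pair of the 50000 strongest peaks in any library. Mmp3 (stromelysin-1) had 108, 182 and 252 scaled bp in young and 177, 207 and 126 bp in old libraries, and Mmp10 (stromelysin-2) had 107, 121 and 111 bp in young and 148, 184 and 275 bp in old libraries. The old values of Mmp10 lay above the young ones at this low level, without a test. Mmp1b had 180, 315 and 0 bp in young and 191, 124 and 345 bp in old libraries. Mmp1a and Mmp1b are close copies of one ancestral collagenase gene, and how the authors treated reads that fit both is not given in the sources used here, so their values are uncertain. The best-ranked peak between Mmp13 and Mmp7 lay between genes, beyond the end of the Mmp27 locus. In young replicate 1 it spanned chr9:7594928-7595679, 322 kb after the start of Mmp13 and 104 kb before the end of Mmp7. Fold enrichment there read 10.7, 8.83 and 10.7 for the young and 11.4, 8.71 and 9.6 for the old libraries, and it ranked between 2862 and 5168. It was singled out after its values were seen.

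**Figure D3:**
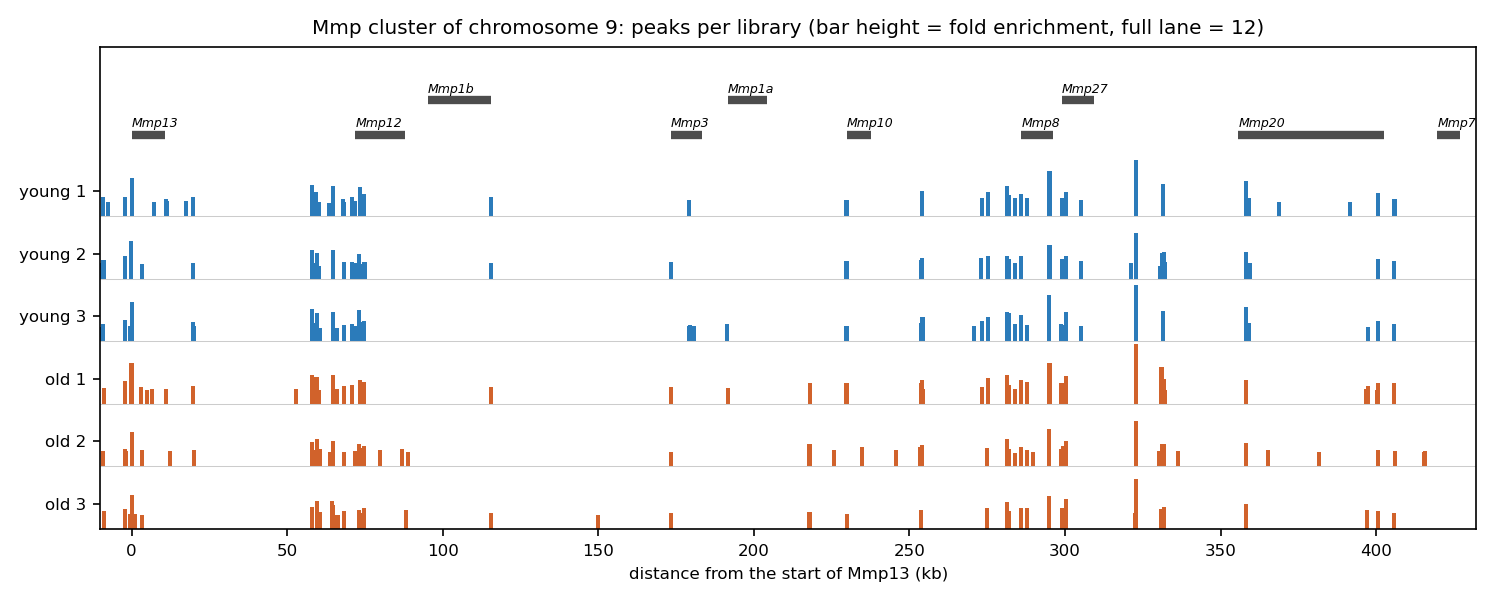
Peaks of each library along the Mmp cluster of chromosome 9, as distance in kb from the start of Mmp13; bar height is the deposited fold enrichment (a full lane is 12), bars of very short peaks are widened to be visible, and dark bars at the top are the genes. Each library has peaks near Mmp13, Mmp12, Mmp8 and Mmp27 and a tall peak between Mmp27 and Mmp20, and few or none from Mmp1b to Mmp10 and at Mmp7.

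The sequences before the starts of 5 cluster genes are shown because these genes share sequence letters and differ in start peaks. They are the 120 bases upstream of the start on the gene's strand, from the RefSeq promoter table of GRCm38.p6 (the primary chromosomes of mm10); capitals mark TGANTCA, the letters bound by AP-1, TATAAA, the TATA box, AGGAAGT, bound by ETS factors and PU.1, and GGGCGG, the GC box, on either strand (TATAAA on the gene's strand). Mmp13 had a peak over its start in all 6 libraries, Mmp3 and Mmp10 in 2 each, and Mmp1a and Mmp7 in none. Those other than Mmp13 were picked after their values were seen.
Mmp13 (chr9:7272394-7272513, plus strand): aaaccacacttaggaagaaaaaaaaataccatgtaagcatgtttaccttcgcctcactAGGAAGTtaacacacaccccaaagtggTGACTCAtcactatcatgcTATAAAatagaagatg
Mmp3 (chr9:7445702-7445821, plus strand): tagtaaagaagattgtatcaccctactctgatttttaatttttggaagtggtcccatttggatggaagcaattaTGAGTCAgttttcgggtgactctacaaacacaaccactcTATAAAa
Mmp1a (chr9:7464021-7464140, plus strand): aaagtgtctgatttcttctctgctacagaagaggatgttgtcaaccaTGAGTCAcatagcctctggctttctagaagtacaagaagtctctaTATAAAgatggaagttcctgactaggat
Mmp10 (chr9:7502222-7502341, plus strand): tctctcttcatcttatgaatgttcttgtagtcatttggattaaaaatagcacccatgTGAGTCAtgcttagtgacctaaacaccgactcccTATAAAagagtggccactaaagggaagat
Mmp7 (chr9:7691970-7692089, plus strand): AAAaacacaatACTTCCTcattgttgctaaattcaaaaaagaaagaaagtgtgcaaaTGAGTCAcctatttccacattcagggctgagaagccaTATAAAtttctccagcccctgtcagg
The 3 capitals that open the Mmp7 line end a TATAAA that begins 123 bases upstream. AP-1 letters began 35, 46, 73, 63 and 63 bases upstream of the starts of Mmp13, Mmp3, Mmp1a, Mmp10 and Mmp7, and TATAAA began 16, 7, 28, 29 and 26 bases upstream of them. The 5 were shown for these letters. Mmp8 and Mmp27, with a peak over the start in all 6 libraries, held neither AP-1 letters nor TATAAA in their 300 bases.

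Over the 300 bases from 250 before to 50 after each start, the table listed 34 starts of 31 members. AP-1 letters stood in 8 of the 34 (23.5%), against 7.0% of all 21045 starts of the same length. All 8 were among the 12 starts of the chromosome 9 cluster, which are copies of related genes and not independent, and none of the 22 other member starts held them. TATAAA on the gene's strand stood in 11 of the 34 starts (32.4%, against 8.3% of all), again 8 of them in the cluster. Within 20 to 40 bases upstream it stood in 5 (14.7%, against 2.6%), those of Mmp10, Mmp1a, Mmp7, Adamts1 and Adamtsl2. GC box letters showed the reverse layout, in 18 of the 22 starts outside the cluster (81.8%) and in 0 of 12 inside it, against 46.7% of all starts. AGGAAGT stood in 4 starts (11.8%, against 9.1%), all in the cluster, at Mmp13, Mmp12, Mmp8 and Mmp7. A match of letters is a description and not a bound site.

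Peaks lay over the start in all 6 libraries at 15 of the 31 members with a listed start (48.4%, against 54.9% of 17274 genes) and in none at 7 (22.6%, against 35.9%). The 15 were Mmp8, Mmp11, Mmp12, Mmp13, Mmp14, Mmp23, Mmp27, Mmp28, Adamts1, Adamts3, Adamts9, Adamts17, Adamts20, Adamtsl4 and Adamtsl5. A peak over any listed start of a gene counted. Mmp12 counted through its start at chr9:7347374, inside the gene, while its start at chr9:7344397 had a peak in 2 libraries, both young. The 7 without were Mmp1a, Mmp7, Mmp20, Mmp21, Mmp24, Adamts13 and Adamtsl2. No member had a start peak in all libraries of one age and in none of the other. When a peak within 500 bp of the start was enough, 24 members had one in all 6 libraries (77.4%, against 63.2% of genes). Then 3 had one in none (9.7%, against 28.4%), so the share in all 6 lay above that of all genes and not below it. Starts with a peak in all 6 libraries had a median of 19 CG dinucleotides in 300 bases and those with none a median of 2, against 22 and 3 over all starts. The relation had exceptions on both sides: Mmp24 had 44 CG and no peak over its start, and Adamts14 had 44 and a peak in 1 library, while Mmp13 had 1 CG, Mmp27 had 3 and Mmp8 had 4, each with a peak in all 6. Of the 14 members with no listed start, 11 had a peak within 1 kb of at least 1 gene end in all 6 libraries, and Adamts16, Adamts19 and Adamtsl1 did not.

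**Figure D4:**
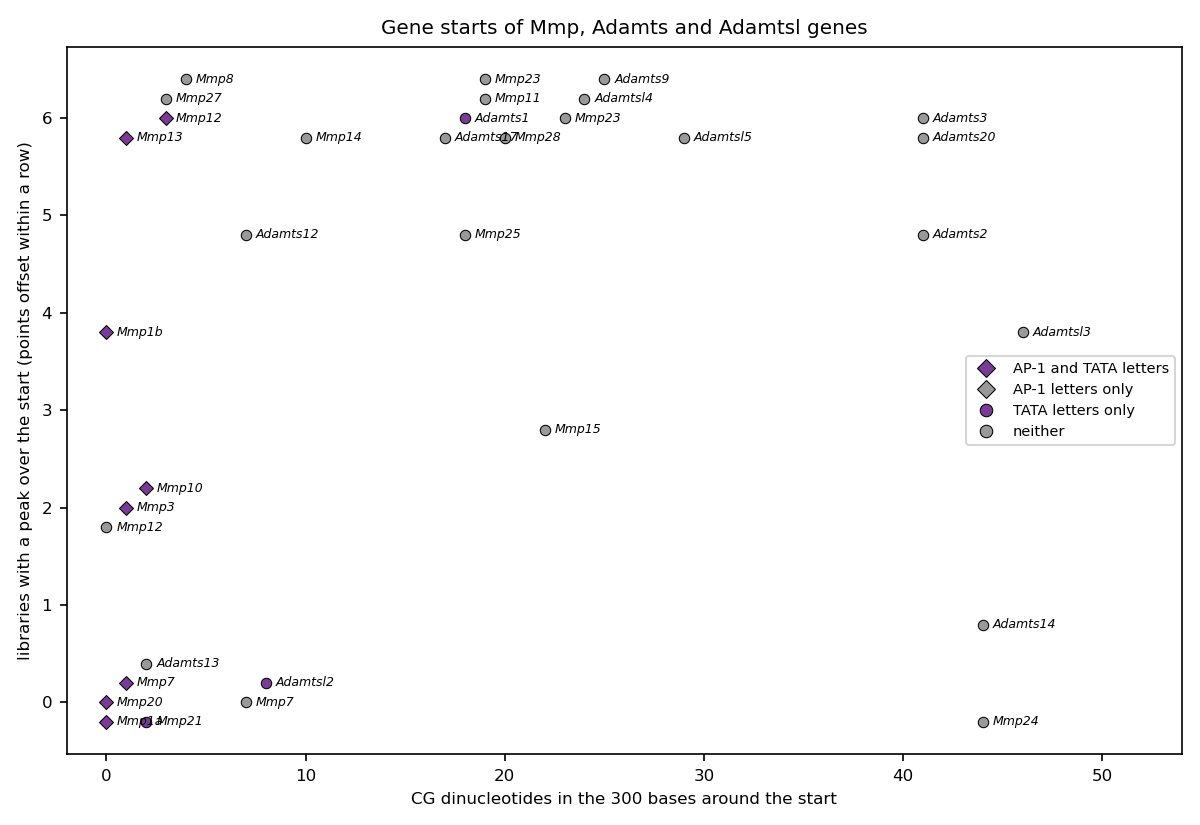
Libraries with a peak over the gene start against the number of CG dinucleotides in the 300 bases around it, 1 point per listed start (34 starts of 31 members, offset within a row for legibility); diamonds hold AP-1 letters and purple points TATAAA on the gene's strand. Starts with both stand at the left, with few CG, and range from 0 to 6 libraries.

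The best-ranked start peaks of 5 role groups outside the cluster are shown with the same marks, since each has the best weakest rank in its group among starts with a peak in all 6 libraries. Adamts17 had a fold enrichment of 10.1, 8.67 and 10.8 in young and 11.3, 9.48 and 8.37 in old libraries, and its weakest rank was 3810. Adamtsl4 ranked 12305 or better, Adamts1 38433 or better, Mmp28 40800 or better and Mmp14 54945 or better in every library.
Adamts17 (chr7:66839615-66839734, plus strand): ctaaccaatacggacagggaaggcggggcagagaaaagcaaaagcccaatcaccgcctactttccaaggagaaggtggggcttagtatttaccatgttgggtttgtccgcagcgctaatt
Adamtsl4 (chr3:95687918-95688037, minus strand): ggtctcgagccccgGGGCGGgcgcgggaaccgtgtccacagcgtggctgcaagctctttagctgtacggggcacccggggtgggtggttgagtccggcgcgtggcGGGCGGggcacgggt
Adamts1 (chr16:85803114-85803233, minus strand): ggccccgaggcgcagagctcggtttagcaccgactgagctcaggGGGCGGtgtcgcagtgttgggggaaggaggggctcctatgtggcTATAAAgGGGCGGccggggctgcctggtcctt
Mmp28 (chr11:83463041-83463160, minus strand): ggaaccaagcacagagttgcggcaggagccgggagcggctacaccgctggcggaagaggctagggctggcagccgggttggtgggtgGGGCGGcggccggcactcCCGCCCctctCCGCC
Mmp14 (chr14:54431478-54431597, plus strand): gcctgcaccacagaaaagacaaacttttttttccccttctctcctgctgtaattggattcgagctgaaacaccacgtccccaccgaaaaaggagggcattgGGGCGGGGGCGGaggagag
In Mmp28 the last capitals belong to a GC box that runs past the start. Adamts17 held none of the 4 sets of letters, Adamts1 held TATAAA beside GC boxes, and the remaining 3 held GC boxes.

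Among the 6 membrane-type genes, 1 was narrower with age and none wider. Mmp16, which codes for a membrane-type metalloproteinase (chr4:17853072-18117479), had 2340, 1866 and 2391 scaled bp in young and 1574, 1185 and 989 bp in old libraries. Every old value lay below every young one (log2 change -0.74, SE 0.15, adjusted p = 0.022 by limma). Of its 14 regions, formed by joining peaks of the 6 libraries that overlap by 1 bp or more, 2 held a peak in all 3 young and in no old library, chr4:18041726-18041906 and chr4:18063036-18063185 in the gene body. At the lower gene end, where all 6 libraries had a peak (chr4:17853004-17854181), peaks covered 927, 1066 and 1175 unscaled bp in young and 992, 627 and 560 bp in old libraries. The peaks were weak: the best region with all 6 libraries (chr4:17894435-17894939) had a fold enrichment of 6.57, 5.96 and 5.78 in young and 4.71, 4.62 and 5.55 in old libraries and ranked between 31012 and 78903. Among the 50000 strongest peaks Mmp16 had 344, 154 and 0 bp in young and 0, 0 and 179 bp in old libraries and lay below the filter. The call rested on single libraries and on the fit: the adjusted p was 0.072 without old replicate 2, 0.082 without old replicate 3, 0.094 without young replicate 1, 0.10 without young replicate 3, 0.087 with the library's covered length as a covariate, 0.18 without scaling and 0.37 without a filter. The call was kept without old replicate 1 (adjusted p = 0.0056) and without young replicate 2 (0.019). It was also kept with the gene plus 2 kb (0.021) and with peaks of a −log10 q of 2 or more (0.0083). With peaks of a −log10 q of 5 or more, the direction turned (log2 change 0.41, SE 0.47, unadjusted p = 0.41).

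The other membrane-type genes did not pass the test. Mmp25, the leukocyte membrane-type enzyme, had 2343, 2749 and 2181 bp in young and 2027, 2463 and 1965 bp in old libraries (log2 change -0.16, SE 0.11, adjusted p = 0.62). Mmp14 had 4901, 5185 and 4509 bp in young and 4859, 4522 and 5018 bp in old libraries (log2 change -0.02, SE 0.08), and Mmp15, Mmp17 and Mmp24 had log2 changes of -0.02 to 0.14. Among the 50000 strongest peaks, Mmp15 had 498, 771 and 552 bp in young and 220, 247 and 144 bp in old libraries, without overlap but below the filter, so it was not tested. Mmp2, the gelatinase, had 4616, 5069 and 5155 bp in young and 4784, 4329 and 4784 bp in old libraries (log2 change -0.09, SE 0.08, adjusted p = 0.70). Mmp11, a stromelysin, had 3300, 3321 and 3236 bp in young and 3192, 3329 and 3243 bp in old libraries (log2 change -0.01, SE 0.08, adjusted p = 0.97). Mmp11 had, among the 50000 strongest peaks, 1487, 2148 and 1592 bp in young and 1932, 2390 and 2302 bp in old libraries (log2 change 0.32, SE 0.15, adjusted p = 0.37).

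Mmp20, the gene of enamelysin, a protease of tooth enamel (chr9:7628231-7674968), had the most negative estimate of the 40 members. Its coverage was 1366, 823 and 1383 bp in young and 589, 438 and 682 bp in old libraries, so the ages did not overlap (log2 change -0.84, SE 0.20, adjusted p = 0.055). It missed the threshold, and passed it without young replicate 2 (log2 change -1.05, adjusted p = 0.022) and with the gene plus 2 kb (log2 change -0.92, adjusted p = 0.037). The difference lay in a few kb inside the gene. The region chr9:7630374-7630995 was covered over 544, 356 and 622 unscaled bp in young and 206, 125 and 279 bp in old libraries, with a fold enrichment of 6.72, 5.06 and 6.5 in young and 4.61, 4.56 and 4.78 in old libraries. Beside it, chr9:7631478-7631845 held a peak in all 3 young and in no old library. The first of these regions ranked 33381, 47448 and 40060 in young and 83297, 56582 and 50266 in old lists. Mmp20 therefore had 511, 368 and 571 bp in young and 0 bp in all old libraries among the 50000 strongest peaks, below the filter. Without a filter it passed on those lists (log2 change -1.76, adjusted p = 0.024). Its old values there were all 0 through the rank limit and had no spread, so that pass supports nothing.

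**Figure D5:**
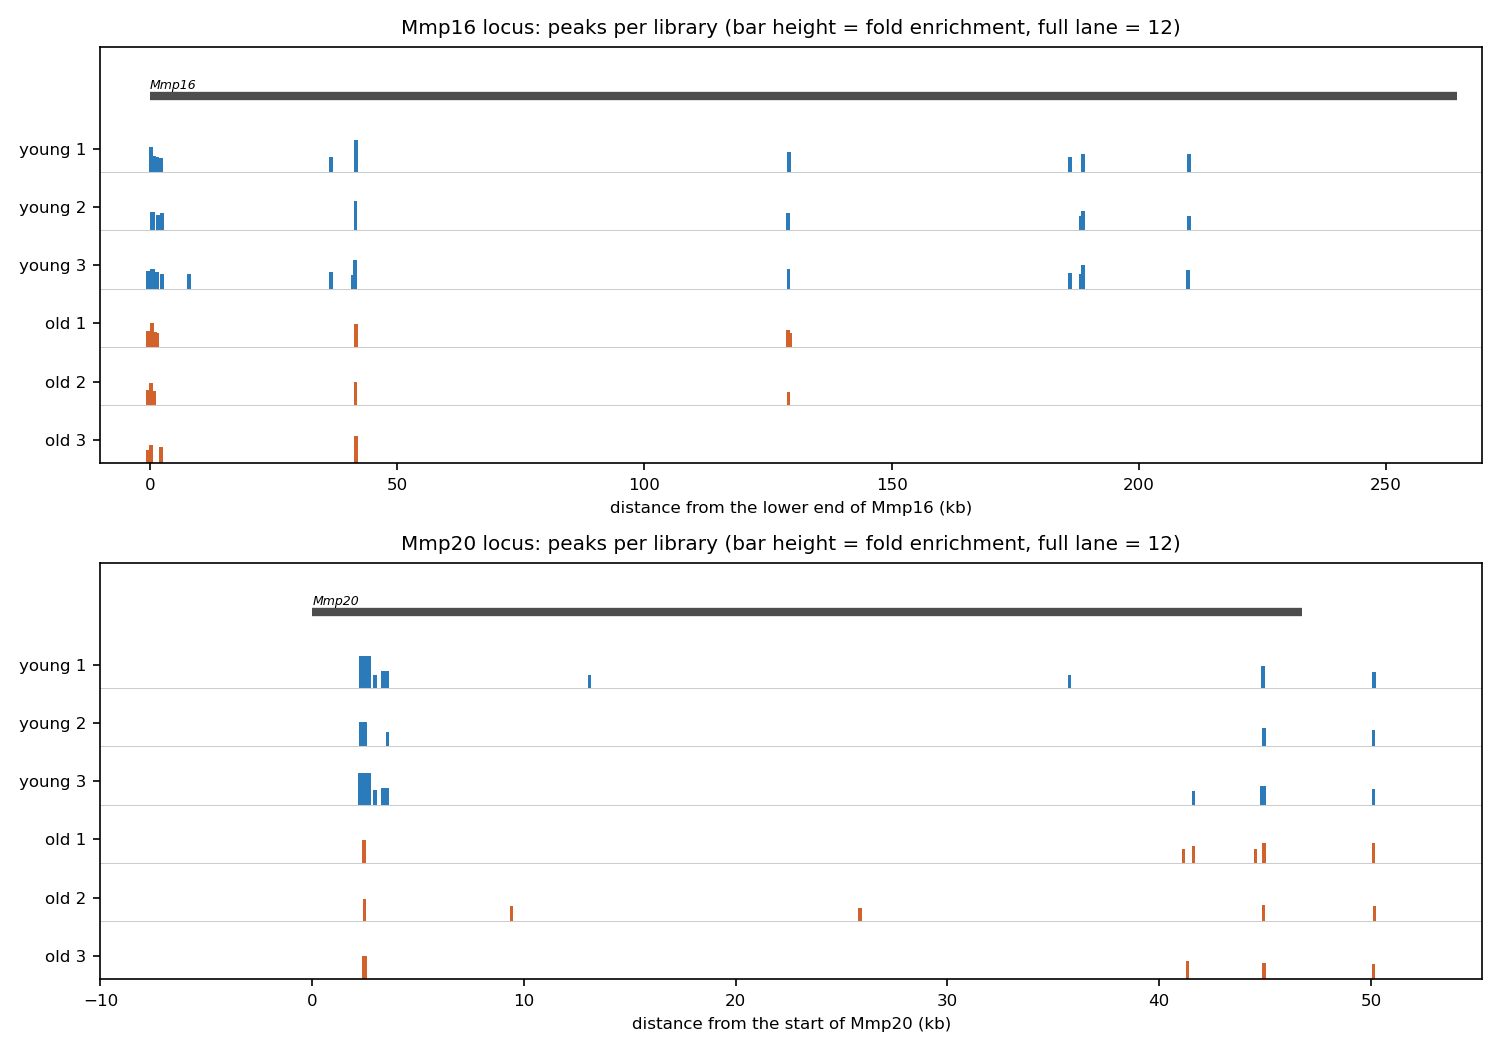
Peaks of each library along Mmp16 and Mmp20, as distance in kb from the lower end of Mmp16 and from the start of Mmp20; bar height is the deposited fold enrichment (a full lane is 12), and very short peaks are widened to be visible. Toward the far end of Mmp16 the young libraries have 2 peaks that no old library has, and just inside Mmp20 their peaks are taller and wider.

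The remaining Mmp genes gave no call. Mmp21 had 343, 420 and 397 bp in young and 792, 697 and 520 bp in old libraries, each old value above each young one (log2 change 0.56, SE 0.23, adjusted p = 0.31). The unscaled mean of Mmp21 was 406 bp for young and 643 bp for old libraries, so it passed the filter through the old libraries alone, and that order supports nothing. Its locus held no base pair of the 50000 strongest peaks. Mmp19 had 2765, 3399 and 2663 bp in young and 2793, 2978 and 2594 bp in old libraries on the deposited lists (log2 change -0.07). Among the 50000 strongest peaks it had 1011, 952 and 2282 bp in young and 2563, 2540 and 1815 bp in old libraries (log2 change 0.71, SE 0.29, adjusted p = 0.30), and young replicate 3 stood with the old libraries. Without that library Mmp19 passed the test (log2 change 1.07, SE 0.17, adjusted p = 0.047). Mmp23, Mmp27 and Mmp28 had log2 changes of -0.20 to 0.06 on the deposited lists and adjusted p of 0.59 or more. In the equal-length fit the 4 genes of this group that were tested, Mmp19, Mmp23, Mmp27 and Mmp28, all had a higher estimate in old libraries (median log2 change 0.56), none called, with Mmp23 at 0.65 (SE 0.34) and Mmp27 at 0.47 (SE 0.25).

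Of the 7 hyalectanase genes, whose products cut aggrecan and versican, none passed, and 6 had a lower estimate in old libraries on the deposited lists (median log2 change -0.17). On the equal-length lists 3 of the 4 tested had a higher estimate (median log2 change 0.04). The exception on the deposited lists was Adamts8, with 1775, 1886 and 1932 bp in young and 2605, 2697 and 2035 bp in old libraries. All its old values lay above all young values (log2 change 0.35, SE 0.11, adjusted p = 0.17). It passed with the gene plus 2 kb (log2 change 0.57, adjusted p = 0.048). Among the 50000 strongest peaks Adamts8 lay below the filter and its ages overlapped. It had 179, 195 and 429 bp there in young and 412, 143 and 138 bp in old libraries. On the deposited lists Adamts20 had 1974, 1717 and 2189 bp in young and 1808, 1111 and 924 bp in old libraries (log2 change -0.58, SE 0.18, adjusted p = 0.17). Old replicate 1 of Adamts20 lay within the young range, and without it the locus passed (log2 change -0.82, adjusted p = 0.0084). Adamts1 had 2630, 3026 and 3082 bp in young and 2502, 2123 and 2538 bp in old libraries, and Adamts5, the main aggrecanase gene of mouse cartilage, had 2641, 2758 and 2598 bp in young and 2310, 2258 and 2494 bp in old libraries. Both had their old values below their young ones, at adjusted p of 0.25 and 0.49. Neither held that order among the 50000 strongest peaks, where Adamts1 overlapped and Adamts5 had 0 bp in every library. Adamts4 and Adamts9 had log2 changes of -0.01 each, and Adamts15 had -0.38 (SE 0.16, adjusted p = 0.32).

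The 3 procollagen N-proteinase genes, whose products trim fibrillar procollagens, gave no call on either set of lists, and 2 of them had old values above young ones among the 50000 strongest peaks. There Adamts14 had 1542, 1604 and 1397 bp in young and 2215, 2155 and 2800 bp in old libraries (log2 change 0.59, SE 0.12, adjusted p = 0.072), and with the gene plus 2 kb it passed (log2 change 0.81, adjusted p = 0.039). Adamts2 had 4675, 2344 and 5740 bp in young and 6496, 6937 and 6723 bp in old libraries (log2 change 0.72, SE 0.27, adjusted p = 0.26). At these loci the ages overlapped on the deposited lists, with log2 changes of 0.08 (Adamts14) and 0.14 (Adamts2, adjusted p = 0.34). A region of Adamts14 next to its start (chr10:61271853-61272872) held peaks in all 6 libraries. It ranked 50789, 51257 and 52588 in the young and 36802, 44314 and 41313 in the old lists, so the equal-length lists counted it in old libraries only. Fold enrichment there overlapped between ages, at 3.98, 3.74 and 4.09 for the young and 4.61, 4.06 and 3.9 for the old libraries. Adamts3 had 3604, 3711 and 3164 bp in young and 3237, 2731 and 2954 bp in old libraries on the deposited lists (log2 change -0.22, SE 0.09, adjusted p = 0.33).

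Adamts7 and Adamts12, whose products cut cartilage oligomeric matrix protein, did not pass either. Adamts7 had 4263, 4022 and 4575 bp in young and 4527, 4350 and 4821 bp in old libraries on the deposited lists (log2 change 0.09). Among the 50000 strongest peaks it had 1349, 1254 and 1363 bp in young and 2042, 1552 and 2270 bp in old libraries, without overlap (log2 change 0.49, SE 0.14, unadjusted p = 0.0086, adjusted p = 0.16). Its region chr9:90198351-90199305 ranked 53594, 48846 and 64335 in young and 32881, 38155 and 29313 in old lists. Adamts12 had 10470, 8683 and 11049 bp in young and 9646, 8347 and 9051 bp in old libraries (log2 change -0.15, SE 0.08, adjusted p = 0.49). Adamts13, which codes for the protease of von Willebrand factor, had 2782, 2896 and 2669 bp in young and 2656, 3521 and 3014 bp in old libraries (log2 change 0.12, SE 0.10, adjusted p = 0.68).

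The summed coverage of cell type markers moved with age on the equal-length lists. Over 10 macrophage markers it was 23037, 22089 and 22919 bp in young and 19027, 18823 and 18712 bp in old libraries, and over 11 stromal and fibroblast markers it was 11063, 10586 and 11238 bp in young and 14326, 13499 and 14336 bp in old libraries. Neither sum overlapped between ages, nor did that of 5 B cell markers, at 3663, 3099 and 3239 bp in young and 2752, 2433 and 2543 bp in old libraries, with 3 of 3 tested lower and none called. No marker of the 3 lists was at 0 in all libraries, and their part in the values of Adamts14, Adamts2, Adamts7, Mmp12, Mmp15, Mmp19 and Mmp20 on these lists was not tested. Of 9 macrophage markers tested there, 8 had a lower estimate in old libraries, against 7259 of all 14395 loci. Among the 9, 1 was called narrower, Mertk (log2 change -0.53, adjusted p = 0.035 by limma), against 0.438% of all loci. That call was lost when any 1 library was left out (adjusted p 0.068 to 0.11). Of 8 stromal and fibroblast markers tested, 5 had a higher and 3 a lower estimate and none was called. Prrx1 had 1625, 1529 and 1144 bp in young and 2450, 2197 and 3066 bp in old libraries (log2 change 0.76, adjusted p = 0.074 by limma). On the deposited lists Prrx1 overlapped between ages (log2 change -0.16). Pdgfra had 140, 1259 and 141 bp in young and 2175, 923 and 1168 bp in old libraries, with overlap (log2 change 1.48, adjusted p = 0.26). Col3a1 had 320, 420 and 389 bp in young and 892, 687 and 1068 bp in old libraries (log2 change 0.90). On the deposited lists its old values all lay below its young ones (log2 change -0.18). Lum had 715, 512 and 676 bp in young and 668, 0 and 770 bp in old libraries (log2 change -0.59). Only old replicate 2 of Lum lay below the young values. Col3a1 passed the filter through the old and Lum through the young libraries, so these estimates support nothing.

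Of the 5 other Adamts genes, none passed. Adamts16 had 7512, 7101 and 6938 bp in young and 6037, 6186 and 6595 bp in old libraries on the deposited lists, all old values lower (log2 change -0.19, SE 0.07, adjusted p = 0.24). Adamts19 (chromosome 18) was sparsely covered, with 478, 93.0 and 746 bp in young and 920, 696 and 556 bp in old libraries (log2 change 0.67, SE 0.36, adjusted p = 0.48). It too passed the filter through the old libraries, with an unscaled mean of 487 bp at the young and 700 bp at the old age. Adamts17 had 7620 to 9407 bp in young and 9070 to 9118 bp in old libraries, and among the 50000 strongest peaks 1520, 2526 and 2211 bp in young and 3028, 3289 and 2511 bp in old libraries (log2 change 0.48, SE 0.18, adjusted p = 0.26). Adamts6 and Adamts10 had log2 changes of -0.12 and -0.06 on the deposited lists.

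With only the 25000 strongest peaks of each library, 3 members were called wider in old libraries and none narrower. Of the 12243 loci tested, 0.923% were called wider. The number of members tested there is not given here, so the 3 cannot be read as a share. On the lists of 50000 the ages overlapped at these 3 members. Adamts9 then had 474, 625 and 843 bp in young and 1687, 1927 and 1617 bp in old libraries (log2 change 1.22, SE 0.17, adjusted p = 0.037 by limma). Adamts4 had 695, 760 and 708 bp in young and 1678, 1585 and 1486 bp in old libraries (log2 change 0.95, SE 0.10, adjusted p = 0.022). Adamts16 had 767, 743 and 736 bp in young and 1681, 1302 and 1397 bp in old libraries (log2 change 0.80, SE 0.11, adjusted p = 0.037). In each locus a region present in all 6 deposited lists crossed the rank limit: chr6:92827163-92828063 in Adamts9 ranked 46675 to 49446 in young and 18046 to 24382 in old lists. Near Adamts4, chr1:171262529-171263599 ranked 28802 to 36355 and 19404 to 23230, and in Adamts16, chr13:70818850-70819525 ranked 26258 to 38727 and 11748 to 21773. In the 50000 lists these loci had log2 changes of 0.14, -0.01 and -0.18.

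The 5 Adamts-like genes gave no call, and 4 had a lower estimate in old libraries on the deposited lists (median log2 change -0.16). Adamtsl1, the longest member with 914.5 kb, had 11957, 10178 and 12748 bp in young and 9800, 9890 and 8702 bp in old libraries, all old values lower (log2 change -0.29, SE 0.08, adjusted p = 0.10). It passed without young replicate 2 (log2 change -0.38, adjusted p = 0.019). Adamtsl3, with the values given above, had all old values below the young ones (log2 change -0.19, SE 0.06, adjusted p = 0.18) and passed with peaks of −log10 q 2 or above alone (log2 change -0.32, adjusted p = 0.034). Adamtsl4, whose product binds fibrillin-1, had 5174, 5498 and 5133 bp in young and 5245, 5780 and 6101 bp in old libraries (log2 change 0.11, SE 0.08, adjusted p = 0.62). Across the 40 members tested, gene length and log2 change had a Spearman rho of -0.19, and across all 16952 loci -0.04. Loci are not independent replicates.

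Regions held at one age only were few. Member loci held 1092 regions, of which 327 (29.9%) had a peak in all 6 libraries. In all 3 young and no old library there was a peak at 24 of them (2.198%), where 1.35% of all 281354 regions at gene loci had that pattern. In all 3 old and no young library there was a peak at 3 (0.275%), where 0.469% of all regions did. When joining required a larger overlap of peaks, 19 of 1151 regions were young-only (1.651%, against 1.251%). With peaks of −log10 q 2 or more, 19 of 698 were (2.722%, against 1.875%). Old-only regions stayed at 3 in both settings. Of the 24, 6 lay in Adamtsl1, and Mmp16, Adamts2, Adamts5, Adamts12 and Adamts16 had 2 each. The best-ranked young-only regions were chr4:18041726-18041906 in Mmp16, with a fold enrichment of 3.81, 3.99 and 4.84 in replicates 1, 2 and 3, then chr13:104453213-104453509 in Adamts6 (3.68, 3.43 and 3.7) and chr7:82552052-82552340 in Adamtsl3 (3.46, 3.12 and 3.5). The old-only regions were chr15:11134297-11134360 in Adamts12 (3.07, 2.98 and 2.85), chr4:86110202-86110333 in Adamtsl1 (3.12, 3.09 and 2.92) and chr11:50651710-50651948 in Adamts2 (3.53, 2.82 and 3.45). All 6 lay in gene bodies. None of the 27 was among the 50000 strongest peaks of any library.

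The genes that act with these proteases were read from the same fits. Of 6 inhibitor genes, 4 were tested on the deposited lists, all 4 with a lower estimate in old libraries and none called (median log2 change -0.10). On the equal-length lists 2 had a higher and 2 a lower estimate (median log2 change -0.01), and Timp3 had a log2 change of 0.03. Timp3, a tissue inhibitor that stays bound to matrix, had 3977, 4101 and 4604 bp in young and 3678, 3573 and 3856 bp in old libraries (log2 change -0.18, SE 0.08, adjusted p = 0.38), and Reck, a membrane-anchored inhibitor, had a log2 change of -0.11 (adjusted p = 0.64). Of 9 genes of activation and clearance none was called, 6 with a lower and 3 with a higher estimate. Serpinb2, the plasminogen activator inhibitor of macrophages, had 3343, 3447 and 3221 bp in young and 2564, 2592 and 2783 bp in old libraries (log2 change -0.31, SE 0.09, adjusted p = 0.10). Plat, tissue plasminogen activator, had a log2 change of -0.19 (adjusted p = 0.33). On the equal-length lists 5 had a lower and 4 a higher estimate. There the ages of Serpinb2 overlapped (log2 change -0.14), and Plat had a log2 change of -0.26.

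Of 17 genes of substrates and fibrillin partners none was called, 10 with a lower and 7 with a higher estimate on the deposited lists. Fn1 (fibronectin) had 3820, 3659 and 4795 bp in young and 3475, 3066 and 3210 bp in old libraries (log2 change -0.31, SE 0.10, adjusted p = 0.16). Thbs1 (thrombospondin-1) had a log2 change of -0.24 (adjusted p = 0.23). On the equal-length lists 7 had a higher and 6 a lower estimate, with none called. There the ages of Fn1 overlapped (log2 change 0.06), and Thbs1 had a log2 change of -0.40. Of the related ADAM genes, 10 of 11 were tested on the deposited lists without a call, where Adam19 had a log2 change of 0.25 (adjusted p = 0.13) and Adam33 of -0.41 (adjusted p = 0.24). Among the 50000 strongest peaks 1 of 9 was called wider, against 0.841% of all loci. Adam19, a membrane-bound sheddase gene, had 1901, 1055 and 970 bp in young and 3959, 4080 and 3168 bp in old libraries, all old values higher (log2 change 1.43, SE 0.22, adjusted p = 0.030 by limma). The call was lost without each library other than young replicate 1 (adjusted p 0.057 to 0.10) and without scaling (adjusted p = 0.15). The same marker sums moved on these lists, and their part in it was not tested.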

How the data were processed

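The members, their role groups and the other gene lists were chosen with earlier results of these data known. Per the labels' protocols, Omni-ATAC libraries of 50000 cells were sequenced as paired-end reads of 125 bp. The submitters' processing notes list mm10, MACS2 2.1.0.20140616, Picard, SAMtools, Bowtie2 2.2.6, cutadapt 1.14 and Trim Galore 0.4.4 without roles, and read filters are not known here. The authors deposited 1 broad peak list per library. Each deposited peak has a score, a fold enrichment (a ratio over background), and −log10 p and −log10 q values. Here the −log10 q ranked peaks within a list, and folds are quoted as the authors' values.

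Base pairs under peaks were summed per locus (RefSeq genes of GRCm38.p6) and scaled to the library's sum over all loci. The test was limma 3.58.1 (R 4.3.3; trend, robust) on log2(bp + 200), contrasting old with young, for loci whose unscaled mean reached 500 bp. Benjamini-Hochberg adjustment ran over all loci tested, with a threshold of 0.05. Folds on this scale understate changes of sparse loci. Neighbouring loci share peaks. The fit was tested on simulated data. Values by library are given for called members, the 2 of each role group with the smallest p, the 2 widest and narrowest, and members apart between ages. Printed promoters follow the best weakest rank, 1 per role group. Other genes and regions were named after their values were seen. Python 3.11.15, numpy 2.4.6, pandas 2.3.3 and matplotlib 3.10.9 were used. Alternatives changed the flank, pseudocount, filter, scaling, peak threshold or list length, added a replicate block, or dropped 1 library.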

Additional observations from a re-analysis of the deposited data

How the results depend on the processing

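The 29 values of named members were recomputed under alternatives, giving 396 values. Of these, 359 kept direction and side of the threshold, 7 lost the call, 10 gained it and 20 turned direction. The cause of these moves was not tested, and read depth, which would limit weak peaks, is unknown. With only peaks of −log10 q 5 or more, log2 changes turned at Adamts12 (0.122), Adamts3 (0.138), Mmp11 (0.0344), Mmp12 (-0.0323), Mmp16 (0.4068), Mmp25 (0.0745) and Mmp8 (0.1293), and at −log10 q 2 or more at Mmp13 (-0.0133). Without scaling they turned at Adamts13 (-0.0327), Adamts2 (-0.0259) and Adamts7 (-0.0703), and with the gene plus 2 kb at Mmp25 (0.0938) and Mmp8 (0.2708). Leaving out 1 library moved Mmp11 between -0.0284 and 0.0003. On the equal-length lists, Adamts16 (0.8012) and Adamts4 (0.9522) turned with 25000 peaks, and Adamts4 also with 2 kb (0.0889) and with 1 library left out (-0.1558 to 0.0596).

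Among all loci on the deposited lists, calls wider and narrower in old numbered 36 and 24 with covered length as a covariate, 0 and 4 without a filter, 2 and 13 without scaling, 3 and 6 at −log10 q 5, and 16 to 92 and 15 to 260 with 1 library left out. On the equal-length lists they numbered 1 and 4 without scaling, and 0 to 85 and 3 to 25 with 1 library left out. Members called wider on the deposited lists numbered 1 with 2 kb. Members called narrower there numbered 2 with 2 kb or at −log10 q 2, 0 with the covariate, without a filter, without scaling or at −log10 q 5, and 0 to 3 with 1 library left out. On the equal-length lists, members called wider numbered 3 with 25000 peaks, 1 with 2 kb and 0 to 1 with 1 library left out, and 1 was narrower without a filter. Over all loci, the settings among these not given above called 72 wider and 98 narrower with 2 kb and 49 and 97 at −log10 q 2 on the deposited lists, and 113 and 55 with 25000 peaks, 108 and 61 with 2 kb and 164 and 91 without a filter on the equal-length lists. Within 500 bp of the start, 24 members had a peak in all 6 libraries (77.4%, against 63.2% of genes).

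A replicate block gave 98 wider and 178 narrower loci and 2 narrower members (Mmp16 and Mmp20) on the deposited lists, with Mmp20 at an adjusted p of 0.020, and 0 and 0 loci on the equal-length lists, where Adam19 (adjusted p = 0.055) and Mertk (0.078) lost their calls. Same-numbered young and old libraries had correlations of 0.139, 0.132 and -0.162 on the deposited lists and 0.051, 0.051 and 0.029 on the equal-length lists. Whether libraries of the same number belong together is not in the labels, and these correlations do not settle it. Every library correlated best with its own number on the equal-length lists, by margins as small as 0.029 against 0.027, and not on the deposited lists. Whether this order reflects a pairing was not tested.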
